A study of Mus musculus with 6 samples.

Results

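Serine palmitoyltransferase small subunit B, Sptssb, and 9 further genes of sphingolipid synthesis were examined in mouse kidney: Sptssa, Sptlc1, Sptlc2, Cers2, Cers6, Degs1, Degs2, Ugcg and Ugt8a. Each gene was measured through the transcript cluster (the array's probe set for 1 transcript unit) whose only gene symbol in the platform annotation is that gene, and 9 of the 10 genes had such a cluster, out of 22086 genes tested. No gene had more than 1, so the rule of taking the cluster with the highest mean made no choice. The cluster that lists Sptssa also lists the microRNA gene Mir1892, which lies within Sptssa, so it stands for neither gene alone. Sptssb was singled out because it showed the third largest decrease of all genes tested in the comparison described here, so its difference is given as a description, without a test.

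Total RNA of whole kidneys from 6 female Pkd1 miR transgenic mice, 63 days old, was hybridised to 6 single-colour arrays. These mice carry a transgene that targets Pkd1 and are a model of polycystic kidney disease. In the saline group 3 mice were injected with saline, and in the metformin group 3 mice received metformin, a biguanide used against diabetes, into the peritoneum at 150 mg per kg per day, in each case over postnatal days 35 to 63. All 6 animals carry the transgene, none without it was compared, and no source used here names its promoter. The samples are labelled biological replicates. The values are log2 expression as deposited, with array medians of 4.67 to 4.86, and all differences are metformin minus saline in log2 units. The highest value, 19.9, exceeds what a 16-bit scanner records, so fold changes hold on the deposited scale. Markers of renal tubules were among the highest values, such as the phosphate carrier Slc34a1 of the proximal tubule (mean 18.64 in saline) and uromodulin, Umod, of the thick ascending limb (18.98). In whole-tissue RNA, fewer cells of a type and less RNA per cell cannot be told apart.

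Sphingolipids are built on a long-chain base that serine palmitoyltransferase makes from serine and a fatty acyl-CoA. The enzyme consists of Sptlc1, a catalytic partner (Sptlc2 or Sptlc3) and a small activating subunit (Sptssa or Sptssb), and the small subunit influences which acyl-CoA lengths are used; Sptssb favours longer ones. Ormdl proteins restrain the enzyme. Ceramide synthases then attach a fatty acid, dihydroceramide desaturases complete ceramide, and ceramide is turned into sphingomyelin, glucosylceramide or galactosylceramide. Kidneys are rich in glycosphingolipids, and glucosylceramide is known to accumulate in polycystic kidneys.

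Sptssb stood at 9.63, 9.50 and 6.36 in the saline kidneys and at 5.69, 5.86 and 4.52 in the metformin kidneys. Saline replicates 1 and 2 were far above all other arrays, saline replicate 3 lay nearer to the metformin arrays than to them, and metformin replicate 3 was the lowest of all. That lowest value, 4.52, lay under the array medians of 4.67 to 4.86, not far above the limit of the filter on low values, 4.03. The groups did not overlap, with a gap of 0.50 between the lowest saline and the highest metformin value. The means were 8.50 ± 1.85 and 5.36 ± 0.73 (SD, n = 3 per group), a difference of -3.14, or 8.80-fold. By size of decrease only Car3, carbonic anhydrase 3 (-5.27), and Ucp1, the uncoupling protein of brown fat (-3.61), ranked before Sptssb, and the predicted gene Gm12138 (-3.00) came next. The spread of Sptssb within each group was itself unusually wide. Its SD exceeded that of 99.96% of genes tested over the saline arrays and of 99.7% over the metformin arrays, where the median gene had SDs of 0.14 and 0.13. Within saline, the mean of replicates 1 and 2 was 9.24-fold that of replicate 3, a ratio as large as the difference between the groups. Leaving out 1 array at a time gave differences from -4.21 without saline replicate 3 (18.5-fold) to -2.57 without saline replicate 1 (5.94-fold).

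**Figure D1:**
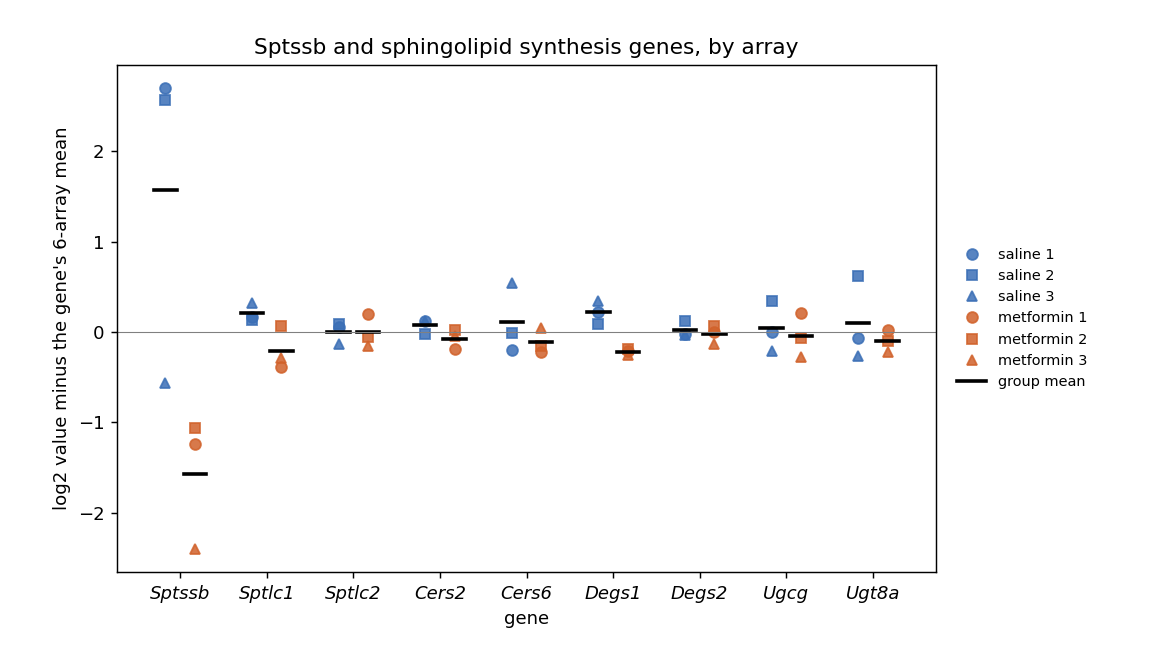
Each point is 1 array's log2 value of a gene minus that gene's mean over the 6 arrays, for the 9 genes with a cluster of their own; blue is saline, orange is metformin, marker shapes are the replicate numbers and black bars are group means. Sptssb spans far more than the other genes, with saline replicates 1 and 2 at the top and metformin replicate 3 at the bottom, while the Degs1 and Sptlc1 points of the groups are separate but close.

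The other measured parts of the enzyme showed smaller differences. Sptlc1, the subunit common to all forms of the enzyme, read 10.57, 10.54 and 10.73 with saline and 10.01, 10.47 and 10.11 with metformin. The groups did not overlap, though only 0.07 separated the nearest values, and the difference of -0.41 ± 0.14 (SE) did not pass the threshold (limma adjusted p = 0.0815; without metformin replicate 2 it was -0.55, adjusted p = 0.0469). Its catalytic partner Sptlc2 read 13.29, 13.32 and 13.10 against 13.44, 13.18 and 13.09. Those values overlapped throughout, and the difference of -0.0043 had a 95% interval from -0.29 to 0.28. The alternative catalytic subunit Sptlc3, which makes shorter long-chain bases and was no member of the set, read 7.72, 7.16 and 7.00 with saline and 6.14, 6.19 and 6.46 with metformin. All saline values were above all metformin values, and Sptlc3 fell by 1.03 ± 0.19 (SE; limma adjusted p = 0.0173). That call ended without metformin replicate 1 (adjusted p = 0.0600) or metformin replicate 2 (0.0608). The inhibitory protein Ormdl1 had a difference of -0.04 (adjusted p = 0.817). The cluster shared by Sptssa and Mir1892 read 11.94, 11.41 and 11.43 with saline and 10.92, 10.88 and 10.57 with metformin, a difference of -0.81 without overlap that belongs to no single gene and was not tested.

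The 250 bases before the RefSeq transcription start are given for Sptssb and for the other genes of long-chain base and ceramide synthesis that fell, Sptlc3 and Degs1, so that their upstream sequences can be compared (GRCm38.p6, 5′ to 3′ on the gene's strand). They lie at chr3:69859895-69860144 on the minus strand, chr2:139493663-139493912 on the plus strand and chr1:182282196-182282445 on the minus strand. Capitals mark matches, on either strand, to any of 7 motifs: the TATA box (TATAAA), the CCAAT box (CCAAT), the GC box (GGGCGG), the E-box (CACGTG), the nuclear receptor half-site (AGGTCA), the cAMP response element (TGACGTCA) and the FOXO motif (GTAAACA).
Sptssb: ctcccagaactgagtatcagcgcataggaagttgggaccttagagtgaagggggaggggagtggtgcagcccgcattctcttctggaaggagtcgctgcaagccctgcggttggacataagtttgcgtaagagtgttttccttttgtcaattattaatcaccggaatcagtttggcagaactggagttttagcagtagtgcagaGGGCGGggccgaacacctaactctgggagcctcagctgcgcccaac
Sptlc3: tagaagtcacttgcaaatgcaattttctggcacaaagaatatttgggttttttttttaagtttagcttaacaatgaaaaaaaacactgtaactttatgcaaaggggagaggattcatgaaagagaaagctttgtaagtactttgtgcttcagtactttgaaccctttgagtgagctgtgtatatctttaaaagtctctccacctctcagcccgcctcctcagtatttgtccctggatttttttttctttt
Degs1: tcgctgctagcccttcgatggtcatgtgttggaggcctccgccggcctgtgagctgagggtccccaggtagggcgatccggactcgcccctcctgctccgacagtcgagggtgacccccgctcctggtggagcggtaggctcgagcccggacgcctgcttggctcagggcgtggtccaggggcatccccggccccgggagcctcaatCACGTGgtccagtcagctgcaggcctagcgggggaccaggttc
The Sptssb window held 1 match, a GC box whose first base lies at -46 from the start, a motif found in 32.7% of 32851 windows of this length. The Degs1 window held 1 match, an E-box whose first base is at -43, found in 6.02% of windows. The Sptlc3 window held none of the 7. The windows differ in composition as well, with 53.2% G and C for Sptssb, 35.6% for Sptlc3 and 69.6% for Degs1. A match describes letters only, and no match overlapped another.

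Among the ceramide-forming members, Degs1 fell and the others did not pass the threshold. Degs1, the desaturase that turns dihydroceramide into ceramide, read 8.63, 8.50 and 8.76 with saline and 8.19, 8.22 and 8.16 with metformin. All saline values exceeded all metformin values, by 0.28 at the nearest, and the metformin arrays were within a few hundredths of a unit of each other. Degs1 fell by 0.44 ± 0.10 (SE; limma adjusted p = 0.0277), which is 1.36-fold. With 1 array left out its difference stayed between -0.51 and -0.38. The call was kept only without saline replicate 2, and without each other array (saline replicates 1 and 3, metformin replicates 1, 2 and 3) the adjusted p was up to 0.0916. Its paralog Degs2, which also makes phytoceramide, read 5.83, 5.97 and 5.81 against 5.85, 5.92 and 5.72. Those groups overlapped, with a difference of -0.04 and a 95% interval from -0.27 to 0.19.

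Neither ceramide synthase among the members passed. Cers2, which makes ceramides with very long acyl chains, read 10.07, 9.92 and 10.07 against 9.75, 9.96 and 9.90. Its difference was -0.14 (95% interval -0.38 to 0.09; adjusted p = 0.367), with overlapping groups. Cers6, which makes ceramides with shorter acyl chains, read 9.72, 9.91 and 10.46 against 9.69, 9.76 and 9.96. Saline replicate 3 was the highest array for Cers6 and the groups overlapped: the difference was -0.22 (95% interval -0.67 to 0.22; adjusted p = 0.467), and -0.0094 without that array.

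The enzymes that put the first sugar on ceramide did not pass either. Ugcg, the glucosylceramide synthase, read 8.16, 8.52 and 7.96 with saline and 8.38, 8.10 and 7.89 with metformin, with a difference of -0.09 (95% interval -0.51 to 0.32; adjusted p = 0.770). Ugt8a, the galactosylceramide synthase from whose product kidney sulfatides are made, read 8.65, 9.34 and 8.45 against 8.74, 8.62 and 8.50. The groups overlapped for both genes, and the Ugt8a difference of -0.19 (95% interval -0.71 to 0.32; adjusted p = 0.593) became 0.069 without saline replicate 2, the highest array.

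Of the 8 members tested besides Sptssb, 1 fell and none rose at a limma adjusted p under 0.05 (2 had an unadjusted p under 0.05), where 9.08% of all genes tested fell and 6.71% rose. All 8 differences lay below 0, where 10400 of all 22086 genes did, with a median of -0.17 against 0.02 for all genes. Saline values lay wholly above metformin values in 2 of the 8, beside 19.4% of all genes, and 37.3% of all genes had groups without overlap in one direction or the other. With 8 genes, the shares called and without overlap are near the background. Quantile normalization of the arrays, which moved the median of all genes from 0.02 to -0.10, brought Sptlc1 past the threshold as well (adjusted p = 0.0448), and the 8 stayed below 0 under it.

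The wider pathway was described with 57 further genes in 5 lists, of which 49 were tested, 2 lay under the filter on low values, 4 shared a cluster with another symbol and 2 were not analysed here. Of the 49, 12 fell and none rose, or 24.5%, where 15.8% of all genes tested were called and 9.08% fell; the median was -0.12, against 0.02 for all genes. The 12 were Sptlc3, 3 genes of ceramide transfer and complex sphingolipids, 5 of breakdown and 3 of sphingosine 1-phosphate. In 20 of the 49 all saline values were above all metformin values, a larger share than the 4294 of all 22086 genes (19.4%). In 3 all metformin values were above all saline values, beside 3935 of all 22086 genes. The count of 12 depended on individual arrays: leaving out saline replicate 1 or metformin replicate 1 gave 3, leaving out metformin replicate 2 gave 4 and leaving out saline replicate 3 gave 6. The count over all 22086 genes depended on them as well. From 3489 it went to 842 without saline replicate 1 and to 1249 without metformin replicate 1. Without metformin replicate 2 it was 1368, and without saline replicate 3 it was 1965.

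**Figure D2:**
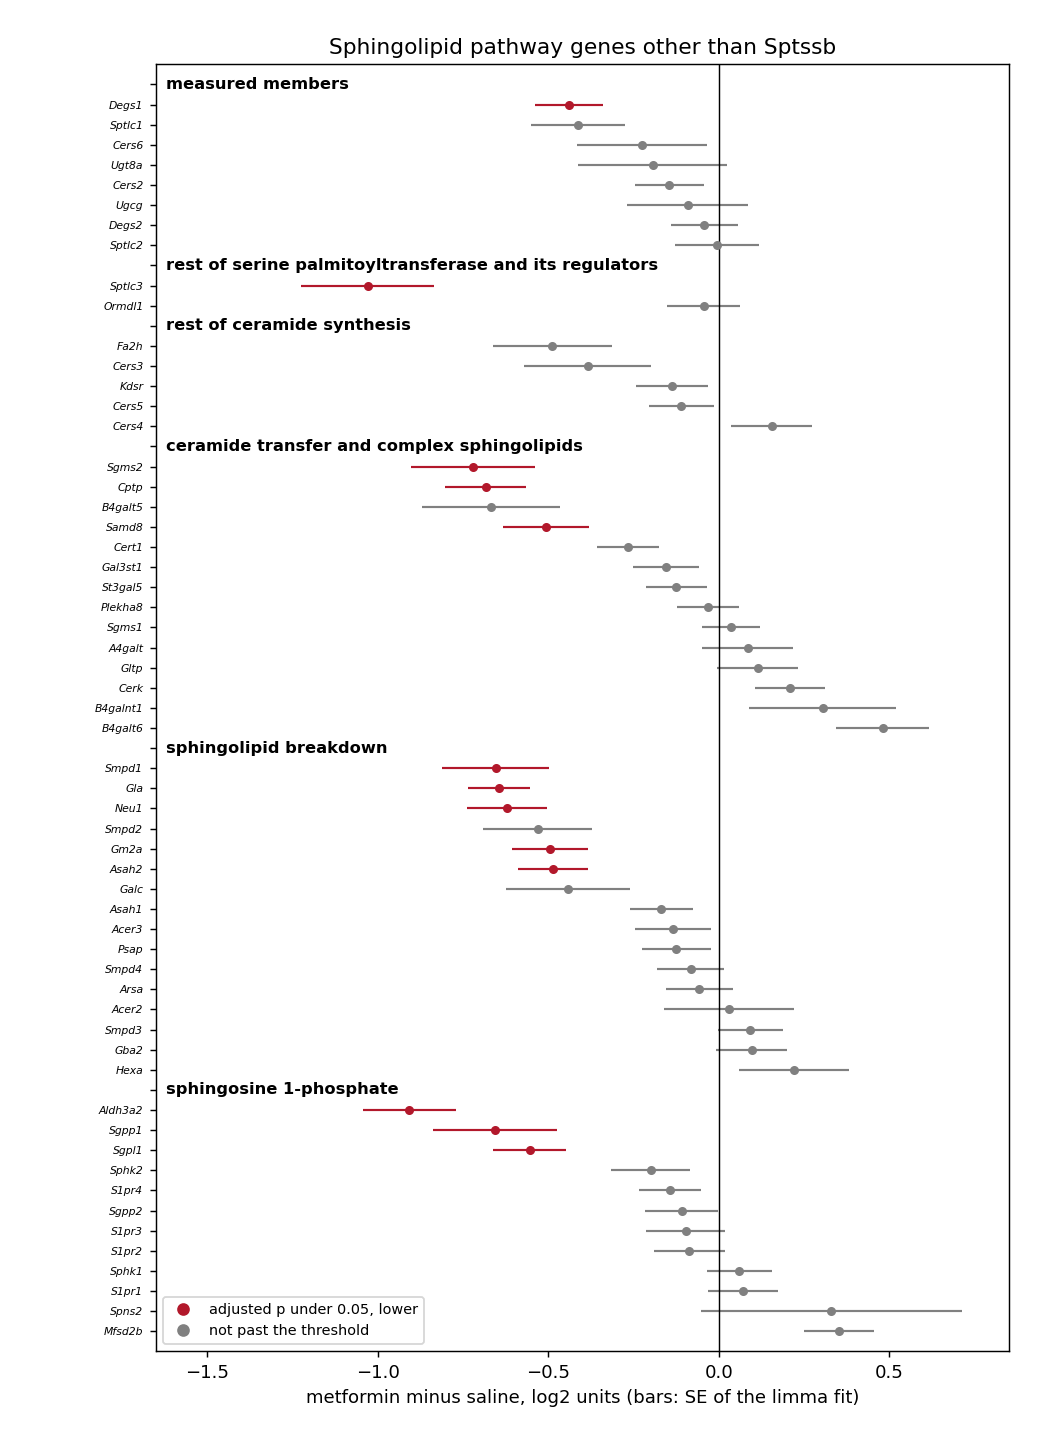
Points are metformin minus saline differences in log2 units with the SE of the limma fit as bars, for the 8 members other than Sptssb and the 49 further pathway genes, grouped by list; red marks an adjusted p under 0.05. The 13 red points all lie below 0, from Sptlc3 at -1.03 to Degs1 at -0.44, and genes of every list but that of the rest of ceramide synthesis are among them.

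In the rest of ceramide synthesis, 5 of 6 genes were tested and none was called (limma; 1 had an unadjusted p under 0.05). Fa2h, which hydroxylates the fatty acids of sphingolipids, read 8.77, 8.33 and 8.55 with saline and 7.73, 8.28 and 8.18 with metformin. Those groups were separate by a narrow margin, with a difference of -0.49 (adjusted p = 0.101). Cers3, known for the ceramides of skin, read 5.08, 4.62 and 4.28 against 4.31, 4.27 and 4.25, which overlapped, with a difference of -0.38 (adjusted p = 0.205). Its metformin values lay under the array medians, close to the filter limit of 4.03. Cers4 had one of 0.15 (adjusted p = 0.417), which was -0.08 after quantile normalization.

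Of 14 genes of ceramide transfer and complex sphingolipids 3 fell, beside 9.08% of all genes tested. Sgms2, the sphingomyelin synthase of the plasma membrane, read 15.05, 14.86 and 15.06 with saline and 13.85, 14.49 and 14.47 with metformin. It fell by 0.72 ± 0.18 (SE; limma adjusted p = 0.0382), with metformin replicate 1 the lowest array. Its paralog of the Golgi, Sgms1 (named outside the rule), showed a difference of 0.04 (adjusted p = 0.810). Samd8, the related enzyme that makes ceramide phosphoethanolamine, fell by 0.51 ± 0.13 (SE; adjusted p = 0.0377), and Cptp, which carries ceramide 1-phosphate between membranes, by 0.68 ± 0.12 (SE; adjusted p = 0.0141). The calls of Sgms2 and Samd8 were each kept only without saline replicate 2, and without saline replicate 1 or 3 or metformin replicate 1, 2 or 3 both ended (largest adjusted p = 0.125 and 0.121). Cptp read 7.81, 7.45 and 7.68 against 7.06, 6.95 and 6.88. The groups were well separated for Cptp, and its call ended without saline replicate 1 (adjusted p = 0.0551). It also ended with the mean deviation of the adipocyte markers as a covariate, where the difference was -0.83 (adjusted p = 0.0547). B4galt5 and B4galt6, chosen after their values were seen, both make lactosylceramide and differed in direction. B4galt5 had a difference of -0.67 (adjusted p = 0.0635), and B4galt6 one of 0.48 (adjusted p = 0.0526). Blocking on the replicate number took both past the threshold (adjusted p = 0.0449 and 0.0422).

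Of 16 breakdown genes tested 5 fell, beside 9.08% of all genes tested. Gla, the alpha-galactosidase lacking in Fabry disease, read 7.37, 7.31 and 7.18 with saline and 6.66, 6.63 and 6.63 with metformin. The metformin arrays were almost equal and well under the saline arrays, and Gla fell by 0.65 ± 0.09 (SE; limma adjusted p = 0.00864), a call kept with any 1 array left out. That call ended with the mean deviation of the adipocyte markers as a covariate, where the difference was -0.54 (adjusted p = 0.0795). Smpd1, the acid sphingomyelinase, fell by 0.65 ± 0.16 (SE; adjusted p = 0.0336). Neu1, the lysosomal sialidase, fell by 0.62 ± 0.12 (SE; adjusted p = 0.0174). Gm2a, the activator protein for ganglioside breakdown, fell by 0.50 ± 0.11 (SE; adjusted p = 0.0274), and Asah2, the neutral ceramidase of the cell surface, by 0.49 ± 0.10 (SE; adjusted p = 0.0227). These 4 lost their calls when saline replicate 1 or either of metformin replicates 1 and 2 was left out (largest adjusted p = 0.119). Those of Smpd1, Gm2a and Asah2 ended without saline replicate 3 too, and that of Asah2 also without metformin replicate 3. The other 11 genes did not pass. Among them, named outside the rule, are further lysosomal genes: the acid ceramidase Asah1 at -0.17 (adjusted p = 0.256), Galc at -0.44 (0.143), Arsa at -0.06 (0.737), Hexa at 0.22 (0.394) and Psap at -0.12 (0.444).

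Of 12 genes of sphingosine 1-phosphate 3 fell, beside 9.08% of all genes tested. Sgpl1, the lyase that splits it irreversibly, read 10.53, 10.74 and 10.54 with saline and 9.95, 10.18 and 10.01 with metformin. It fell by 0.55 ± 0.11 (SE; limma adjusted p = 0.0185). Aldh3a2, which oxidises the fatty aldehyde the lyase releases, read 11.61, 11.35 and 11.72 against 10.45, 10.75 and 10.76. It fell by 0.91 ± 0.14 (SE; adjusted p = 0.00983), a call kept with any 1 array left out. Sgpp1, a phosphatase that returns it to sphingosine, fell by 0.66 ± 0.18 (SE; adjusted p = 0.0489). Leaving out saline replicate 1 or 3 or metformin replicate 1 or 2 ended the Sgpp1 call, and leaving out saline replicate 1 or metformin replicate 1 or 3 that of Sgpl1 (largest adjusted p = 0.145). Sgpp2, the other phosphatase on the list, had a difference of -0.11 (adjusted p = 0.535). The kinases Sphk1 (0.06, adjusted p = 0.713) and Sphk2 (-0.20, adjusted p = 0.281) did not pass, nor did the receptors S1pr1 to S1pr4, and Mfsd2b, an exporter of blood cells, stood at 0.35 (adjusted p = 0.0563; blocked on the replicate number, 0.0477); these genes and Sgpp2 were chosen after their values were seen.

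Markers of proximal tubule were lower with metformin too. All 12 of its markers had differences below 0 and 3 passed, where 10400 of all 22086 genes tested lay below 0 and 9.08% fell. Their mean level was 14.83 to 15.26 over the saline arrays and 13.96 to 14.64 over the metformin arrays. Their mean deviations from the 6-array mean were 0.28, 0.16 and 0.59 for saline replicates 1, 2 and 3, and -0.72, -0.28 and -0.03 for the same replicates of metformin. Every metformin array lay below every saline array in this score. The part of tubule content in the pathway differences was not tested.

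Markers of fat and of urothelium, the lining of the renal pelvis, moved with Sptssb. Of 13 adipocyte markers 10 were tested, all 10 lay below 0 and 1, Adipoq, passed. Over all 22086 genes tested, 10400 lay below 0 and 11686 above, 9.08% fell and 6.71% rose. The mean level of the adipocyte markers was 6.69 to 8.52 with saline and 6.27 to 6.39 with metformin. Lep and Elovl3 lay under the filter on low values and Cfd had no listed cluster. Unlike the other adipocyte markers tested, Pck1 was highest on saline replicate 3, at 15.99, 16.45 and 16.50 against 15.20, 16.00 and 16.05. It was lowest on metformin replicate 1, and the proximal tubule score had its highest and lowest values on the same arrays. The level of Pck1, far above that of the other adipocyte markers, raises their mean level, and Pck1 also counts in the adipocyte deviations. Plin4 differed by only -0.09. The adipocyte deviations were 0.78, 1.51 and -0.32 for saline replicates 1, 2 and 3, and -0.73, -0.62 and -0.62 for those of metformin. All 5 urothelial markers (4 uroplakins and Krt5) were tested and lay below 0, none passed (limma), and their mean level was 6.55 to 8.42 with saline and 6.09 to 6.68 with metformin. The urothelial deviations were 1.50, 0.36 and -0.38 for the saline replicates and -0.39, -0.25 and -0.84 for the metformin replicates. Sptssb, at 2.70, 2.57 and -0.57 and then -1.24, -1.07 and -2.40, was high on the saline arrays where both lists were high and, like the urothelial list, lowest on metformin replicate 3. With the adipocyte score as a covariate the Sptssb difference was -0.79 in place of -3.14, but the score was itself lower on every metformin array, so in this fit the score and the treatment cannot be told apart. The part of fat or urothelium in the difference of Sptssb was not tested. Macrophage markers ran the other way, with all 7 above 0, none past the threshold, and overlapping groups. Among the remaining marker lists, mean deviations of thick ascending limb and intercalated cell markers were lower on every metformin array than on any saline array, while those of distal convoluted tubule, podocyte and myelinating glia markers overlapped. Those of principal cell markers overlapped as well, as the urothelial ones did, at 0.24, 0.45 and -0.19 for saline and -0.09, -0.01 and -0.39 for metformin. Like Sptssb they were above 0 on saline replicates 1 and 2 only and lowest on metformin replicate 3; of 6 principal cell markers 4 lay below 0 and 2 passed. The part of principal cells in the difference of Sptssb was not tested either.

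**Figure D3:**
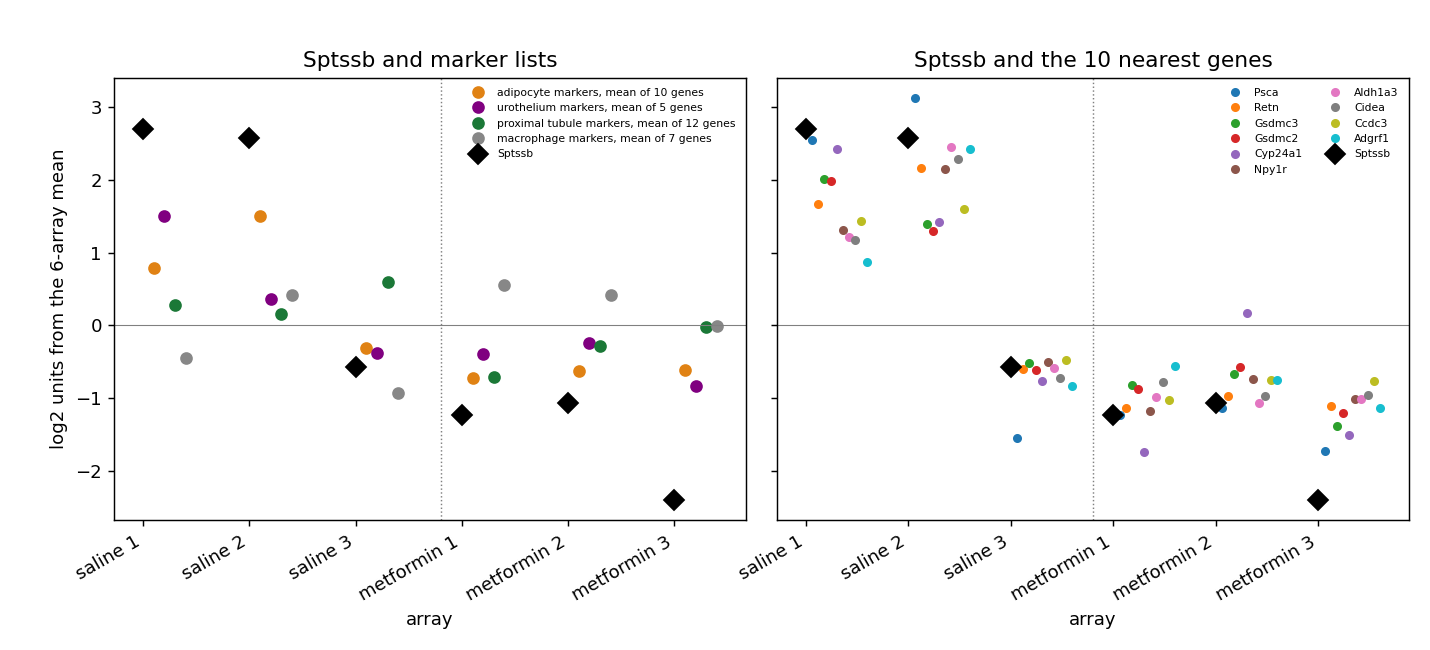
Deviations from the 6-array mean in log2 units are plotted for each array: on the left Sptssb (black diamonds) and the means of 4 marker lists, on the right Sptssb and the 10 genes nearest to it. Sptssb and the adipocyte and urothelial lists are above 0 on saline replicates 1 and 2 and below 0 on saline replicate 3 and the metformin arrays. All 10 nearest genes have their lowest saline value on replicate 3, as does Sptssb, for likeness to which they were picked.

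The 10 protein-coding genes whose profile over the 6 arrays lay nearest to that of Sptssb were ranked by the root mean square difference of their deviations from their own means, among 14146 candidates with a median of 1.93. Psca, a surface protein anchored by a lipid, came first at 0.54, with values of 10.87, 11.44 and 6.76 on the saline arrays and 7.08, 7.17 and 6.58 with metformin. Its saline replicate 3 fell among the metformin values, so its groups overlapped. Then came Retn, the adipokine resistin, at 0.70, with 7.40, 7.90 and 5.14 against 4.59, 4.77 and 4.63, and the gasdermins Gsdmc3 (0.73) and Gsdmc2 (0.81), close paralogs whose probes can share signal. Gsdmc3 read 9.06, 8.43 and 6.53 against 6.22, 6.38 and 5.65. Next were the vitamin D hydroxylase Cyp24a1 (0.82), the neuropeptide Y receptor Npy1r (0.83), the retinaldehyde dehydrogenase Aldh1a3 (0.84), the lipid droplet protein Cidea (0.89), Ccdc3 (0.95) and the adhesion receptor Adgrf1 (0.97). Saline replicate 3 was the lowest saline array in all 10. The groups did not overlap in 6 of them, beside 37.3% of all genes tested. The genes were picked for likeness to Sptssb, which has both traits, so neither count is a separate result. Retn and Cidea are on the adipocyte marker list. Ranking by Pearson's correlation instead gave 10 genes of which 6 were the same. Of the sphingolipid genes Sptlc3 came nearest, at 1.50 and place 121, followed by Gla (1.66, place 663).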

How the data were processed

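RNA from 6 kidneys was biotin-labelled (GeneChip WT PLUS, per the labels' protocols). Each deposited value is the log2 expression of 1 transcript cluster on 1 array. The submitters' processing notes name RMA and version 4.0 of Transcriptome Analysis Console as the authors' tools, without settings or probe definitions in the sources used here. Their number, 3 arrays per group, limits the precision. Of 65956 clusters 30604 carry 1 gene symbol, updated through Entrez numbers to the RefSeq table of GRCm38.p6, 2146 several and 33206 none. Clusters whose 6-array mean was at or under 4.03, the lowest 33.3%, were left out, and the highest-mean cluster per symbol was kept.

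Metformin was compared with saline over 22086 genes by limma (version 3.58.1, R version 4.3.3; lmFit, then eBayes, two-sided, no covariate), with Benjamini-Hochberg adjustment over all of them and a threshold of 0.05. The script was tested on simulated data. SE and 95% intervals come from that fit. The members, lists and alternatives were chosen with earlier results of these data known. Named were all members, pathway genes past the threshold (otherwise up to 3 per list with the smallest p) and the 10 genes nearest to Sptssb; exceptions are marked. The labels number the replicates but name no pairs. Deviations from the group means correlated at 0.118, 0.145 and 0.541 between same-numbered replicates 1, 2 and 3. Of the differently numbered pairs, saline 2 with metformin 1 reached 0.299, and the rest were negative, from -0.465 to -0.0224. Pairing by replicate number was not established. Blocking on that number was an alternative, beside leaving out arrays, other scaling, other filters, averaging the clusters of a gene, trend and robust options, and an adipocyte score as covariate. Promoter sequences are RefSeq's (GRCm38.p6).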

Additional observations from a re-analysis of the deposited data

How the results depend on the processing

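Over the 6 fits that each left out 1 array, the count of genes changed ran from 842 to 3965 (3489 with all arrays), that of the members other than Sptssb from 0 to 1 (1) and that of the pathway genes from 3 to 14 (12). With the adipocyte score as a covariate these counts were 963, 0 and 2, and the Sptssb difference was -0.79. The score itself differs between the groups. Of the calls of named sphingolipid genes 12 ended in that fit, Gla's among them (limma adjusted p = 0.0795). Only that of Aldh3a2 was kept (0.0386). Of those 12, Degs1 (-0.62), Cptp (-0.83), Smpd1 (-0.87), Sgpp1 (-0.90), Sgms2, Samd8, Neu1, Gm2a and Asah2 differed more there than without the score. Sptlc3 (-0.84), Gla (-0.54) and Sgpl1 (-0.42) differed less, and all 12 stayed below 0. Quantile normalization gave 2 members (Degs1 and Sptlc1). With the replicate number as a block, 4373 genes, 1 member and 15 pathway genes were called, and the block changed no call of a member. Of the genes changed, 42.5% were higher as deposited, 25.2% after centring arrays on their median and 20.7% after quantile normalization. Direction turned for differences near 0. Sptlc2 ran from -0.11 to 0.070 with 1 array left out, Degs2 from -0.086 to 0.013, Ugcg from -0.22 to 0.060, Ugt8a from -0.38 to 0.069 and Ormdl1 from -0.13 to 0.0086. With the adipocyte score as a covariate Sptlc2 was 0.14, Degs2 0.059, Ugcg 0.27 and Ugt8a 0.40, and after quantile normalization Cers4 was -0.076. The cause was not tested. The Sgpp1 call ended with no filter on low values (adjusted p = 0.0576) and with trend and robust options (0.0539).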
